A study of Mus musculus with 36 samples.

Results

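Clusterin and the whey acidic protein (WAP)-domain family were followed as a group of 6 genes, Clu, Wfdc18, Wfdc2, Wfdc12, Slpi and Nupr1, across mouse submandibular salivary glands with and without a Wnt-driven squamous tumor. The 6 genes were given by name, out of 31102 genes in the single-cell tables, and all 6 were measured. They had been picked with their levels by genotype, stage and cell type already known, so those levels are given below as a description without a test, and tests are given for sex and for genotype in a separate set of glands. Drop-seq, which captures the 3′ ends of mRNA with a molecular barcode (UMI) in droplets holding single cells, had been run on 26 glands. Control glands numbered 6 at postnatal day 40 (P40) and 6 at P90, and double-mutant glands numbered 7 at each stage. The double mutants carried beta-catenin GOF together with Bmpr1a LOF, both switched by K14-Cre, so only keratin-14-expressing cells and their progeny recombined. Controls, which the labels call wildtype or control, carried K14-Cre and the EYFP reporter and no mutant allele. All mice were on a C57BL/6 background. In addition, 4 glands, 2 controls and 2 double mutants at P70, had been profiled by CITE-seq, which adds antibody barcodes to the same droplet method, and bulk RNA-seq had 1 library per genotype, the control taken at P70 and the double mutant at P100.

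Clusterin is a secreted chaperone that binds unfolded proteins outside the cell and marks stressed or regenerating epithelium in many tissues. The WAP domain is a small, cysteine-rich fold found in secreted inhibitors of serine proteases and in antibacterial peptides of mucosal fluids. Slpi inhibits neutrophil elastase and cathepsin G, Wfdc2 is secreted by ducts and airways, Wfdc12 has antibacterial activity, and Wfdc18 was described as an extracellular proteinase inhibitor of the mammary gland. Nupr1 has no WAP domain and is not secreted: it is a small nuclear protein induced by cell stress, in part through the transcription factor ATF4.

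Wfdc12 (chr2:164189231-164190558), Slpi (chr2:164354070-164356507) and Wfdc2 (chr2:164562715-164568510) are neighbours in the WAP-domain cluster of chromosome 2, in the GRCm38.p6 build. Wfdc18 (chr11:83709004-83711360), Nupr1 (chr7:126623246-126625470) and Clu (chr14:65968483-65981548) lie elsewhere, and all 6 are annotated as protein coding. The 250 bases before the RefSeq start site are shown for 3 of them. Wfdc12 is shown because its level differed most by sex, Wfdc18 because it was the member with a TATA box, and Nupr1 because it was the member with an ATF4-type motif. Capitals mark TATAAA, 31 to 26 bases before the Wfdc18 start, and the reverse complement of TGATGCAA, the joint C/EBP-ATF motif, 110 to 103 bases before the Nupr1 start.
Wfdc12 (chr2:164190559-164190808, minus strand): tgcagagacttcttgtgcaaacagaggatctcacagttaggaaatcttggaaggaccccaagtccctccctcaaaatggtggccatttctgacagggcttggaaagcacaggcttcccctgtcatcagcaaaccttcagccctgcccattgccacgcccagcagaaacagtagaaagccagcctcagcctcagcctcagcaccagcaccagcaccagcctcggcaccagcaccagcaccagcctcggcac
Wfdc18 (chr11:83708754-83709003, plus strand): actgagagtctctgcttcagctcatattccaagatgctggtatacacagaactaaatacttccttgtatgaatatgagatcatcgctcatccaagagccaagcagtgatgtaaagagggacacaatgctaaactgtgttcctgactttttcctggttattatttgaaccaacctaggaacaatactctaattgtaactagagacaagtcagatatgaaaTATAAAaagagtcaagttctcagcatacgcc
Nupr1 (chr7:126625471-126625720, minus strand): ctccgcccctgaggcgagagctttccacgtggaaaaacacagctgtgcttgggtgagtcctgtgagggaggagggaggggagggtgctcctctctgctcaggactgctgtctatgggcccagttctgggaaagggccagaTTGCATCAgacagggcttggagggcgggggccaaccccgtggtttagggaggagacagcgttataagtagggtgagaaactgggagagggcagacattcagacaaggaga
Both strands of these windows and of those of Slpi and Wfdc2 were searched for 5 motifs. TATAAA occurred in 12.4% and TGATGCAA in 0.791% of 32851 mouse promoters of the same length. CTTTGAA and CTTTGTT, bound by TCF/LEF factors, occurred in 4.46% and 5.03% of promoters, and the androgen receptor half-site AGAACA in 16.1%, and none of these 3 motifs occurred in the windows of the 5 members searched.

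The Drop-seq libraries held between 777537 and 7013325 UMIs, and 23346 of 26987 barcodes were kept as cells. Of these, 14 barcodes occurred in more than 1 library. The CITE-seq libraries held 1136442 to 2459694 UMIs and 2535 cells. Per the study's methods, a small share of human HEK cells was spiked into these samples. No step here removed human cells, and whether the counts used still held them was not tested. Bmpr1a (8.91 to 46.6 CPM, UMIs of a gene scaled to a fixed total, in double mutants and 9.5 to 26.2 in controls) and Ctnnb1, which encodes beta-catenin, overlapped between genotypes, and 3′ UMIs do not tell a recombined allele from an intact one. Double-mutant P40 replicate 1, labelled male, held 591 UMIs of Xist, which coats the silenced X chromosome of female cells, and 1 from Y-linked genes, and double-mutant P90 replicate 5, labelled female, held no Xist UMI and 194 from Y-linked genes. Both were from batch 11, and the results of Wfdc12 by sex are given with and without them. Both CITE-seq control libraries, one labelled male and one female, held Xist UMIs (151 and 165) as well as Y-linked UMIs (60 and 71). In the sections below, levels are CPM on the plain UMI total, changes are log2 changes from edgeR with TMM scaling ± standard error (SE), and a gene was called at an adjusted p under 0.05 over all genes tested. TMM and the plain total placed the median gene differently between genotypes, at log2 changes of 0.01 and 0.63 in Drop-seq and 0.0018 and 0.73 in CITE-seq. Fewer cells of a type and less RNA per cell cannot be told apart in any whole-gland value.

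In Drop-seq, most double-mutant glands held more Clu, Slpi and Wfdc18 than any control gland, which was not so for Wfdc2, Wfdc12 and Nupr1. Over all glands the genotypes overlapped for every member. Clu had a lowest, median and highest level of 7.96, 18.2 and 50.3 CPM in the 12 control glands and of 46.4, 266 and 905 CPM in the 14 double-mutant glands. All but 2 double-mutant glands, 12 of 14, lay above the highest control, and the log2 change was 3.06 ± 0.39. Slpi had 0, 1.01 and 14.1 CPM in controls, with 3 of 12 glands at 0 UMIs, where a count of 0 allows up to 0.475 to 1.79 CPM. In double mutants Slpi had 3.78, 65.3 and 239.5 CPM, again with 12 of 14 glands above the highest control and a log2 change of 4.50 ± 0.57. Wfdc18 had 109.7, 861 and 8796 CPM in controls and 2250, 13967 and 32762 CPM in double mutants, with 9 of 14 above the highest control and a log2 change of 1.88 ± 0.69. For all genes, 21.6% of 8768 were called in this contrast, 1224 higher and 670 lower in double mutants, and 4706 higher and 46 lower on the plain UMI total. The members were chosen on this contrast, so nothing follows from their place against that share.

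Wfdc2 had 43.3, 97.4 and 446 CPM in controls and 100, 194 and 390 CPM in double mutants. No double-mutant gland lay above the highest control, and the log2 change was 0.02 ± 0.19, or 0.59 on the plain UMI total. Wfdc12 had 1025, 5827 and 25459 CPM in controls and 1918, 7169 and 20735 CPM in double mutants, with a log2 change of 0.09 ± 0.56. Nupr1 had 638, 861 and 1233 CPM in controls and 335, 1146 and 2219 CPM in double mutants. The double mutants spread to both sides of the controls, with 7 of 14 glands above and 2 below the control range, and the log2 change was −0.12 ± 0.25 with TMM and 0.42 on the plain UMI total, so its direction depended on the scaling.

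Batches 8, 9, 12, 13 and 14 held glands of both genotypes. Within each of these 5 batches every double-mutant gland exceeded every control gland for Clu, with differences of 1.64 to 4.85 in mean log2(CPM + 1), and for Slpi, with 3.12 to 6.46. Wfdc18 did so in 4 of the 5 batches, whereas in batch 13, with 1 control gland at 8796 CPM and 3 double-mutant glands at 2250, 7947 and 21754 CPM, the mean difference was −0.27. Nupr1, on this plain-total scale, was also higher without overlap in 4 of the 5 batches, by 0.19 to 1.15, and −0.44 in batch 13. Wfdc2 was higher without overlap in 3 of the 5 batches, by 0.94 to 1.40, and Wfdc12 in none. How many of all genes were without overlap in these batches was not counted. On this scale the median gene had a log2 change of 0.63 over all Drop-seq glands, so these counts alone do not set members apart.

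**Figure D1:**
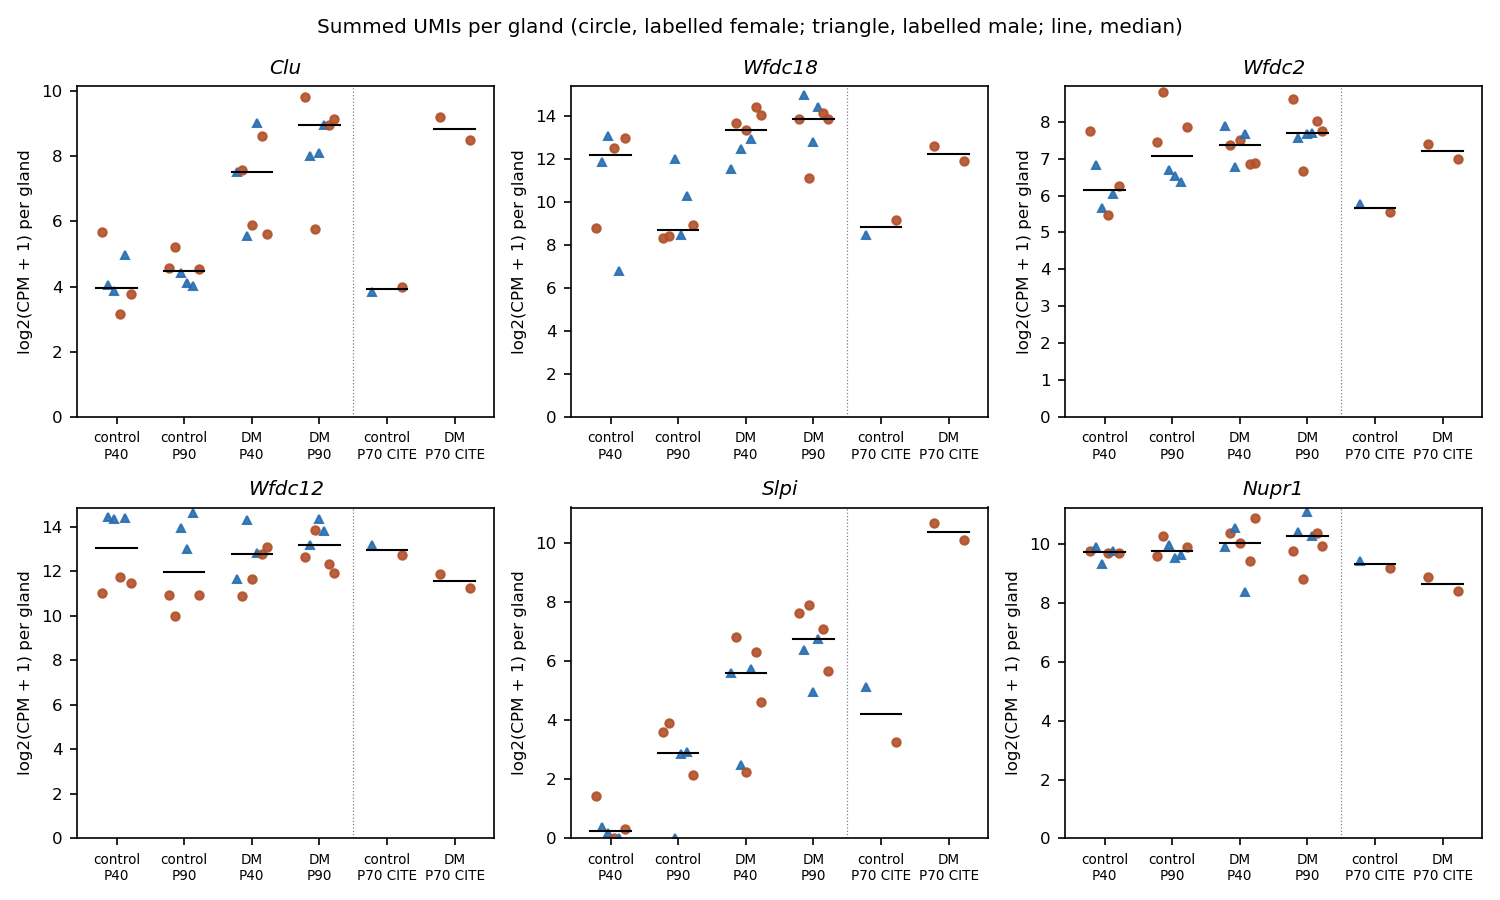
Level of each member per gland, as log2(CPM + 1), for the 4 Drop-seq groups and, right of the dotted line, the 2 CITE-seq groups (CITE). Circles are glands labelled female, triangles glands labelled male and lines medians. Clu and Slpi lie higher in most double-mutant (DM) glands than in controls, and Wfdc12 separates male from female control glands.

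The members had been chosen on Drop-seq and bulk values, and the CITE-seq glands gave a test of genotype, with 2 glands against 2, in which 13.7% of 10058 genes were called (929 higher and 450 lower in double mutants with TMM, 2998 higher and 109 lower on the plain UMI total). Clu, Slpi and Wfdc18 rose and Wfdc12 fell under both scalings. Clu had 13.2 and 15 CPM in the control glands and 358 and 586 CPM in the double-mutant glands, a log2 change of 4.37 ± 0.39 (edgeR quasi-likelihood test, adjusted p = 0.00102). Slpi had 8.61 and 34.3 CPM against 1094 and 1637 CPM, a log2 change of 5.33 ± 0.61 (edgeR, adjusted p = 0.00346). Wfdc18 had 355 and 582 CPM against 3819 and 6213 CPM, a log2 change of 2.72 ± 0.41 (edgeR, adjusted p = 0.00939). These 3 are the members whose Drop-seq levels also lay above every control in most double-mutant glands. With 2 glands against 2, every member was without overlap in CITE-seq, so lack of overlap does not set these 3 apart.

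Wfdc12 had 9304 and 6864 CPM in the CITE-seq controls and 3719 and 2421 CPM in the double mutants, a log2 change of −2.09 ± 0.38 (edgeR, adjusted p = 0.0171). Both double-mutant glands were labelled female and the controls as 1 male and 1 female, so by label sex and genotype were not balanced for this gene. The Xist and Y-linked UMIs in both control libraries, beside 16 and 14 Y-linked UMIs in the double mutants, went beyond these labels. The tests above take the 2 control libraries as independent glands, which was not tested. Nupr1 had 697 and 591 CPM against 476 and 340 CPM, a log2 change of −1.35 ± 0.30 (edgeR, adjusted p = 0.0269), and was not called on the plain UMI total, with −0.63 and an adjusted p of 0.12 from edgeR, nor without double-mutant replicate 1 (adjusted p = 0.0602) or replicate 2 (adjusted p = 0.169). Wfdc2 had 53.2 and 46.2 CPM against 167 and 127 CPM, a log2 change of 0.87 ± 0.29 that was not called (edgeR, adjusted p = 0.0761), although it was called on the plain UMI total with 1.59 (edgeR, adjusted p = 0.00706). Nupr1 and Wfdc2 therefore had calls that rested on the scaling.

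**Figure D2:**
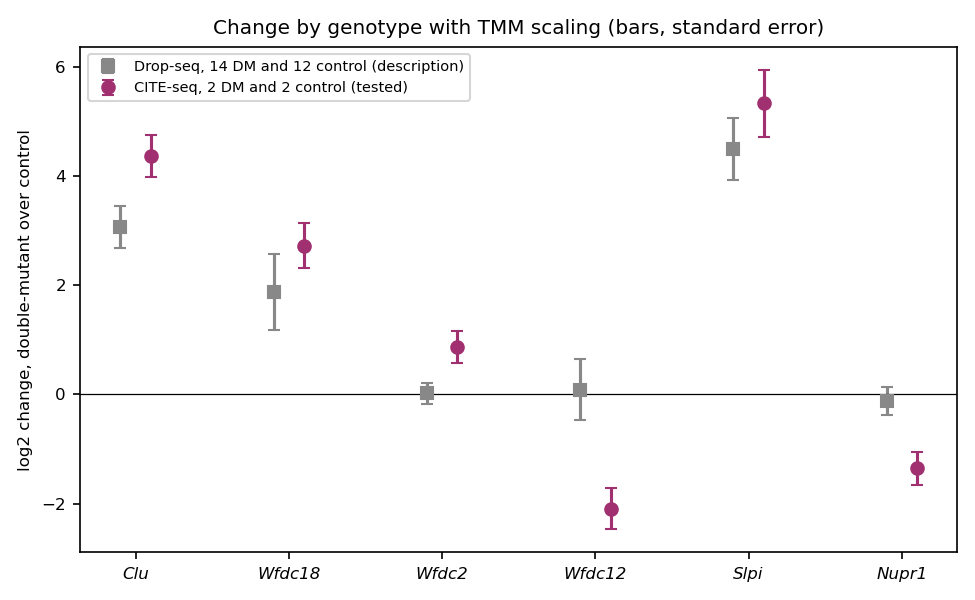
Log2 change of each member, double-mutant over control, with TMM scaling and bars of 1 standard error. Squares give Drop-seq (14 against 12 glands, a description) and circles CITE-seq (2 against 2, tested), and Clu, Slpi and Wfdc18 lie above 0 in both.

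Bulk RNA-seq gave 1 library of each genotype, without replicates, at 34515744 and 34729551 counted reads. Both glands were from females, but the control was taken at P70 and the double mutant at P100, so stage and genotype cannot be told apart. In TPM, which scale reads by gene length and then to a fixed total, Clu had 1.69 in the control and 28.6 in the double mutant, 16.9 times as much. Wfdc18 had 46.3 and 428 TPM (9.24 times), Slpi 2.03 and 16.4 TPM (8.1 times), Wfdc12 334 and 1538 TPM (4.61 times) and Nupr1 54.7 and 92.2 TPM (1.69 times). Wfdc2 ran the other way, with 37.6 TPM in the control and 22 TPM in the double mutant. Per length, Wfdc12 was the most abundant member in both bulk libraries, ranking 26th of all genes in the control and 11th in the double mutant, and Clu was the least abundant in the control.

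To see which cells carried each member, cells were clustered without the 6 members, and clusters were named from fixed markers as acinar-like, duct-like, basal-like and so on. These levels describe the clusters and are not tests. T/NK-like cells, which should lack the secretory transcripts, served as a measure of background for the secreted members and not for Nupr1. They had a median of 1065 CPM of Wfdc18 (79.2 to 8071) and 652 CPM of Wfdc12 (118 to 19913) over 9 double-mutant glands. Over 6 control glands the medians were 76.4 CPM of Wfdc18 (0 to 4760) and 1102 CPM of Wfdc12 (0 to 6332). No doublet caller was applied.

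Clu peaked in a cluster that was almost restricted to tumors. This tumor luminal-like cluster, keratin-8-positive cells led by Ltf, Clu, Lcn2, Wfdc18 and Id1, held 332 cells, 99.4% of them from double-mutant glands, and passed 10 cells in 9 glands. Clu, left out of the clustering, had a lowest, median and highest level over those 9 glands of 3553, 6028 and 11776 CPM, against 1.8 CPM (median) in acinar-like, 42.9 in striated duct-like and 146 in Smgc+/Esp4+ duct-like cells of controls. In this cluster 74.5% of cells from double mutants had a Clu UMI and 67.9% had UMIs of both Clu and Wfdc18, at a median of 870 UMIs per cell. In T/NK-like cells of double mutants these shares were 2.45% and 0.613% at a median of 427.5 UMIs.

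Clu was also higher in the other ducts of double mutants than in those of controls. Striated duct-like cells had 0, 42.9 and 469 CPM over 12 control glands and 127, 539 and 1846 CPM over 14 double-mutant glands. Smgc+/Esp4+ duct-like cells had 22.5, 146 and 380 CPM against 273, 637 and 1825 CPM over 12 glands each. Endothelial-like cells had median levels of 148 CPM in controls and 304 CPM in double mutants, above the T/NK-like cells of the same gland in 5 of 6 controls and 9 of 9 double mutants. Clu UMIs thus also lay in a cluster that is not epithelial. The T/NK-like cells held 6 Clu UMIs in controls and 7 in double mutants, and the part of doublets or free RNA was not tested. Cancer stem cell-like cells of double mutants, which carried Axin2, Notum and Nkd1, had only 90.8 CPM (median of 9 glands), above the T/NK-like cells in 4 of 7 glands.

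Tumor luminal-like cells held, as a mean over 14 double-mutant glands, 32.3% of the Clu UMIs and 2.28% of all UMIs. Without them, Clu had 45.4, 139 and 392 CPM in double mutants, and 11 of 14 glands still lay above the highest control of 50.3 CPM. Striated and Smgc+/Esp4+ duct-like cells held 14.8% and 12.4% of Clu UMIs on average. Acinar-like cells held 15% of Clu UMIs but 46.6% of all UMIs. Over the 9 glands that also had T/NK-like cells, their median was 45.7 CPM against 22.6 CPM in T/NK-like cells, and higher in 6 of 9. Of the acinar-like cells of double mutants 13.7% had a Clu UMI, at a median of 3625 UMIs per cell. In T/NK-like cells this was 2.45% at 427.5 UMIs. At such unlike depths these values do not tell background from Clu of acinar-like cells.

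**Figure D3:**
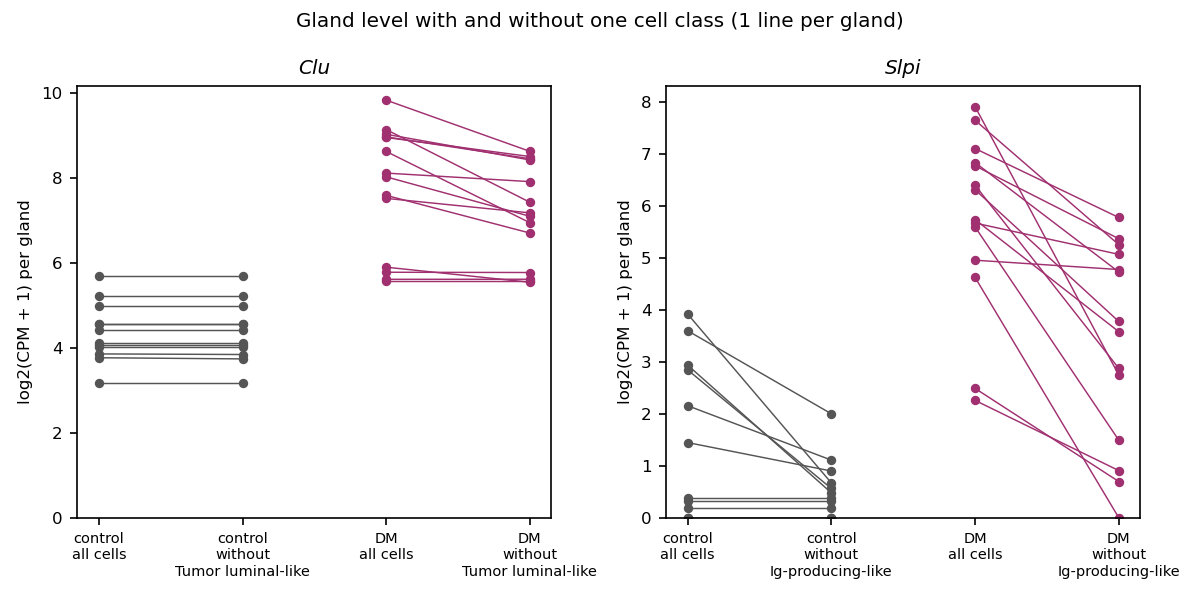
Clu with and without tumor luminal-like cells and Slpi with and without Ig-producing-like cells, as log2(CPM + 1) per gland, 1 line per gland. Lines of controls for Clu are flat, those of double mutants fall but stay mostly above the controls, and Slpi falls in most double-mutant (DM) glands.

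Slpi had a different source. Ig-producing-like cells, antibody-secreting cells led by immunoglobulin genes, Mzb1 and Jchain, held on average 74.4% of the Slpi UMIs and 1.19% of all UMIs in the 13 double-mutant glands with at least 20 Slpi UMIs. Over the 6 double-mutant glands with at least 10 such cells, Slpi had 2488, 5049 and 12241 CPM. A Slpi UMI was found in 84.1% of 151 such cells of double mutants and in 8 of the 12 found in controls, but in 0 of 326 T/NK-like cells of double mutants, which allows a share of up to 0.92% of cells with a UMI at a median of 427.5 UMIs, and does not limit the share of cells expressing Slpi. Tumor luminal-like cells had a median of 147 CPM and acinar-like cells of double mutants 5.48 CPM. Without Ig-producing-like cells, Slpi had 0, 11.8 and 53.8 CPM in double mutants and 0, 0.346 and 2.99 CPM in controls, and 10 of 14 double-mutant glands lay above the highest control. The number of Ig-producing-like cells per gland therefore entered the whole-gland Slpi value, and the part of each was not tested.

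Wfdc18 had more than 1 main source. Luminal Dcpp1+-like cells held on average 38.5% of Wfdc18 UMIs in 12 control glands (0 to 94.4%) and 39.8% in 14 double-mutant glands (0 to 88.5%). In controls they held 9.36% of all UMIs. Smgc+/Esp4+ duct-like cells held on average 32.7% of Wfdc18 UMIs in control glands (0.933 to 75.0%) and 3.28% of all UMIs. The Wfdc18 level in luminal Dcpp1+-like cells was 16579, 21848 and 29674 CPM over 5 control glands and 47986, 67563 and 128906 CPM over 9 double-mutant glands. These are the glands with at least 10 such cells, and the share of all genes without overlap in this class was not counted. The study reported more Dcpp1+ cells at P40 than at P90, and these levels were not adjusted for stage. Smgc+/Esp4+ duct-like cells had medians of 9163 CPM in controls and 29216 CPM in double mutants, and tumor luminal-like cells had 41169, 65823 and 108558 CPM over 9 glands. Acinar-like cells had 41.3, 84.8 and 1257 CPM over 12 control glands and 206, 6083 and 15772 CPM over 14 double-mutant glands. These acinar-like cells exceeded the T/NK-like cells of the same gland in 3 of 6 controls and in 8 of 9 double mutants. In controls 29.3% of acinar-like cells had a Wfdc18 UMI, at a median of 4541 UMIs per cell. In T/NK-like cells of controls this was 11.3% at 812 UMIs. At such unlike depths these values do not tell whether the acinar-like value in controls was background. The acinar-like class was made up differently in the genotypes, with 32.2%, 25% and 30.5% of control cells in clusters 2, 3 and 4 and 30.3% of double-mutant cells in cluster 5. Without luminal Dcpp1+-like cells, Wfdc18 had 109.7, 525.7 and 1234 CPM in control glands and 715.5, 7536 and 22059 CPM in double-mutant glands, and 13 of 14 double mutants, in place of 9, lay above the highest control.

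Wfdc2 was highest in some of the ducts and in tumor luminal-like cells. Striated duct-like cells held on average 46.5% of its UMIs in controls and 34.8% in double mutants, at median levels of 926 CPM (594 to 1502) and 1194 CPM (738 to 1840), and the tumor luminal-like cells had 910, 1360 and 1782 CPM. Smgc+/Esp4+ duct-like cells were low, with medians of 155 CPM in controls and 363 CPM in double mutants, below the basal-like cells led by Ucma (399 and 647 CPM). Basal-like cells led by Sostdc1, found in double mutants, had a median of 942 CPM, whereas cancer stem cell-like cells had 98.5 CPM and acinar-like cells of controls 4.16 CPM. The unnamed duct cluster led by Duoxa2 had 2740 CPM in the 1 control gland and 3128 CPM in the 1 double-mutant gland that passed 10 cells.

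Wfdc12 was carried by acinar-like cells, with a mean of 72.1% of its UMIs in controls and 67.3% in double mutants. These shares ran from 12.02 to 89.01% over control glands and from 32.66 to 97.49% over double-mutant glands. In controls an unnamed cluster led by Epha7 came next, with a mean of 10.65% (0.0611 to 74.33%) and a median level of 12478 CPM. An unnamed cluster led by Muc19, the gene of a gel-forming mucin, had means of 3.02% in controls and 12.3% in double mutants. This Muc19-led cluster held 0 to 16.4% of the Wfdc12 UMIs of a control gland. In the study's tissue sections Muc19-positive cells lay in the neighbouring sublingual gland. Whether such tissue was dissected along with the submandibular glands was not tested. Median levels were 8118 CPM in acinar-like cells of controls and 12097 CPM in those of double mutants, and 40183 and 38259 CPM in the Muc19-led cluster. By labelled sex, the acinar-like medians of control and double-mutant glands were 3266 and 8348 CPM in females and 29970 and 19670 CPM in males, so they lay in opposite order and the pooled medians give no direction. The unnamed cluster led by 2310057J18Rik, with Wfdc12 among its leading genes, had medians of 26286 CPM in controls and 6875 CPM in double mutants over 5 glands each. In all, 1029 of 10743 control cells and 247 of 12603 double-mutant cells lay in unnamed clusters with the acinar gene Prol1 among their leading genes, outside the acinar-like class.

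Nupr1 was spread over many classes, with its highest medians in the Muc19-led cluster, at 12343, 21885 and 27395 CPM over 5 control glands and 8082, 17259 and 29724 CPM over 9 double-mutant glands. The Muc19-led cluster held 0 to 39.7% of the Nupr1 UMIs of a control gland. Duct progenitor-like cells, marked by Ascl3 and Foxi1, came next with medians of 5622 and 5927 CPM. Tumor luminal-like cells had 2570 CPM, cancer stem cell-like cells 2247 CPM and acinar-like cells 492 CPM in controls and 442 CPM in double mutants, beside 742 and 125 CPM in T/NK-like cells. Ranges of the 2 genotypes overlapped in the Muc19-led, duct progenitor-like and acinar-like cells.

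**Figure D4:**
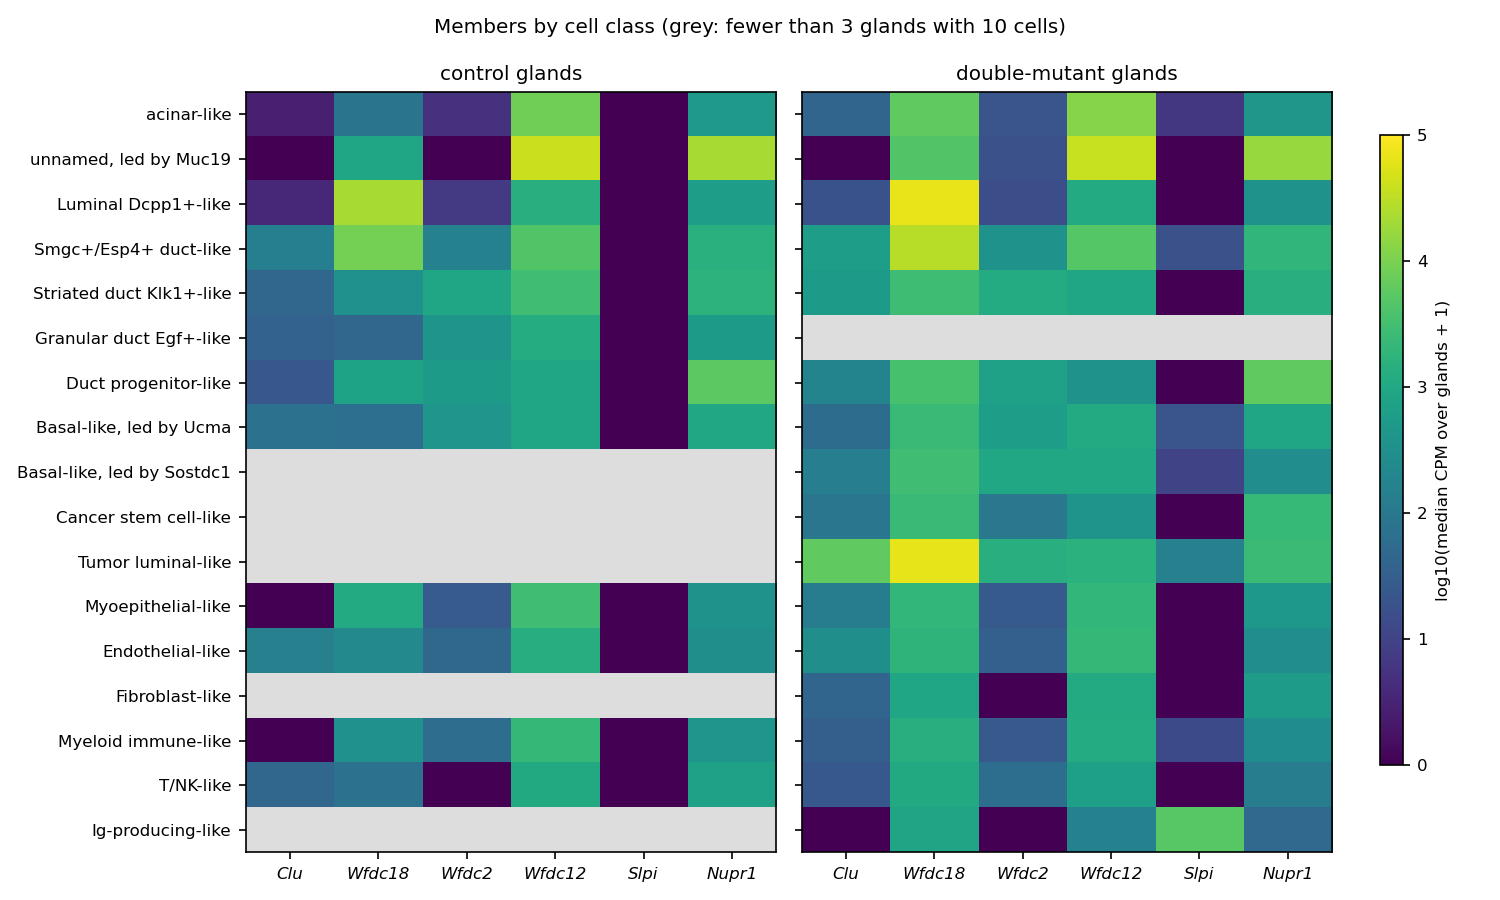
Median level of each member over glands, as log10(CPM + 1), in 17 cell classes of control and double-mutant glands, with grey where fewer than 3 glands held 10 cells of the class. Clu is brightest in tumor luminal-like cells, Slpi in Ig-producing-like cells, Wfdc18 in luminal Dcpp1+-like and tumor luminal-like cells, and Wfdc12 and Nupr1 in the Muc19-led cluster.

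Sex separated the control glands for Wfdc12. It had 1025, 2049 and 3433 CPM in the 6 female glands and 8221, 21419 and 25459 CPM in the 6 male glands. Every male gland stood above every female gland, the medians differed 10.5-fold, and the log2 change was 3.48 ± 0.39 (edgeR with stage as covariate, adjusted p = 0.000176). Across all genes 0.895% of 7936 were called, 57 higher and 14 lower in males, and 31 higher and 18 lower on the plain UMI total. With batch as a further covariate the log2 change was 3.53 (edgeR, adjusted p = 0.00254), and on the plain UMI total it was 3.13. At P40 the males had 22574, 21130 and 21708 CPM and the females 2114, 3433 and 2826 CPM, and at P90 the males had 15847, 8221 and 25459 CPM and the females 1934, 1025 and 1984 CPM, so the order held at each stage.

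In an alternative chosen after seeing the data, the sex comparison was repeated on the acinar-like cells alone, which leaves out the Epha7-led cluster. Wfdc12 had 1577, 3266 and 3968 CPM in those of female and 12267, 29970 and 37295 CPM in those of male control glands, a log2 change of 3.25 ± 0.25 (edgeR, adjusted p = 2.99e-07). The classes were not made of the same clusters in both sexes, with 38.7% of male acinar-like cells and 23.0% of female ones in cluster 4. Wfdc18 also rose in male acinar-like cells, with 41.3, 50.4 and 90.5 CPM in females and 76.8, 310 and 1257 CPM in males (log2 change 2.71 ± 0.47, edgeR, adjusted p = 0.00182), where 2.63% of 3990 genes were called. The T/NK-like background of Wfdc18 moved with it, at 1637 and 4760 CPM in the 2 male and 0 to 153 CPM in the 4 female control glands with 10 such cells, and its part in this result was not tested.

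The other members were not called by sex in whole control glands. Log2 changes, male over female, were 1.39 ± 1.05 for Wfdc18 (adjusted p = 0.618), −0.64 ± 0.29 for Wfdc2 (adjusted p = 0.396), 0.24 ± 0.19 for Nupr1 (adjusted p = 0.637) and 0.09 ± 0.34 for Clu (adjusted p = 0.932), all from edgeR, and the last 2 had the opposite sign on the plain UMI total (−0.14 and −0.44). Slpi had too few UMIs in controls to be tested.

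In double mutants the sexes overlapped for Wfdc12. The 8 glands labelled female had 1918, 5719 and 14622 CPM and the 6 labelled male 3180, 11824 and 20735 CPM, a log2 change of 0.89 ± 0.69 (95% interval −0.46 to 2.24, edgeR, adjusted p = 1.0). Without the 2 libraries whose Xist and Y-linked UMIs went against the label, the 7 female glands had 1918, 5129 and 14622 CPM, the 5 male glands had 7346, 14288 and 20735 CPM, and the log2 change was 0.96. In acinar-like cells alone, without those 2 libraries, Wfdc12 had 3228, 8172 and 16505 CPM in the 7 female and 13892, 21007 and 26116 CPM in the 5 male glands (log2 change 1.11, edgeR, adjusted p = 0.692). No gene of 9223 was called by sex in double mutants with edgeR (0%), 199 had an unadjusted p under 0.05, and DESeq2 called 2. These fits kept the 2 libraries against their label, so the 0% is no background share for sex. Without the 2 libraries edgeR called 5. The difference between the 2 sex effects, a test added after seeing the data, had a log2 value of −2.56 ± 0.91 for Wfdc12 (unadjusted p = 0.00921 from edgeR), but its adjusted p was 1.0 over 10940 genes, of which 0 were called and 379 had an unadjusted p under 0.05. That fit kept the labels as given. Over 30 alternatives, the one without the 2 libraries among them, the value was −2.91 to −1.80 (edgeR or DESeq2, adjusted p at least 0.159). The sex effect was therefore not shown to differ between genotypes. Of the other members in double mutants, with the labels as given, Slpi had the lowest log2 change, male over female, at −1.09 ± 0.64. The rest lay between −0.25 and 0.47 (edgeR, adjusted p = 1.0 for each of these members). Over all alternatives, the fit without the 2 libraries among them, Slpi had −1.48 to −0.36.

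**Figure D5:**
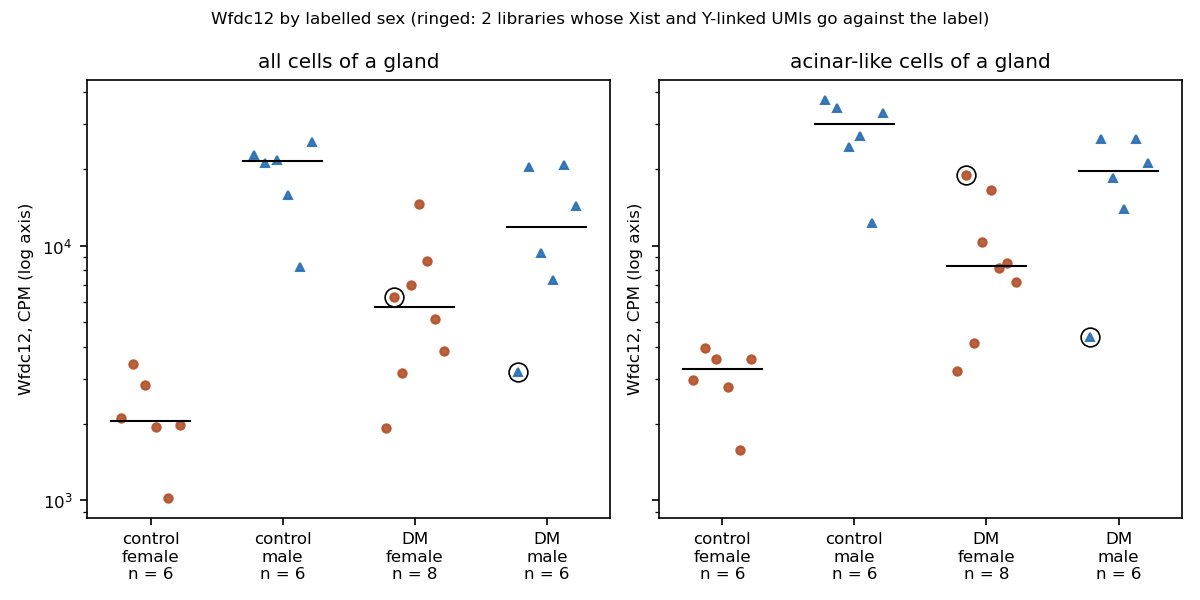
Wfdc12 in CPM on a log axis by genotype and labelled sex, in all cells of a gland and in its acinar-like cells, with lines at the medians. Male and female control glands do not overlap in either panel, and the ringed points are the 2 double-mutant (DM) libraries whose Xist and Y-linked UMIs go against the label.

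Stage, P90 against P40, had been in view when the members were chosen, so their changes with stage are given as a description with no p-value. Among controls the stages were run in different batches, so stage and batch cannot be told apart there. Across all genes, 8.18% of 7936 were called in controls, 553 higher and 96 lower at P90, and 737 higher and 13 lower on the plain UMI total. Wfdc12 had 2114, 12281 and 22574 CPM at P40 and 1025, 5103 and 25459 CPM at P90, a log2 change of −1.01 ± 0.36. Log2 changes were 0.59 ± 0.29 for Wfdc2, −0.28 ± 0.34 for Clu and −0.24 ± 0.19 for Nupr1, and the last 2 were above 0 on the plain UMI total, at 0.0165 and 0.13. Wfdc18 had 109.7, 4776 and 8796 CPM at P40 and 316, 418 and 4165 CPM at P90, a log2 change of −2.87 ± 1.07. Its P40 glands thus spanned those of P90. Slpi had 0 to 1.72 CPM at P40 and 0 to 14.1 CPM at P90, on at most 26 UMIs per gland.

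In double mutants, no gene of 8614 was called by stage with edgeR (0%), 465 had an unadjusted p under 0.05 and DESeq2 called 1. Slpi had 3.78, 47.3 and 113 CPM at P40 and 29.98, 108 and 239.5 CPM at P90, with a log2 change of 1.5 ± 0.63. Clu had 46.4, 182 and 518 CPM at P40 and 53.7, 492 and 905 CPM at P90, with a log2 change of 0.81 ± 0.52. The stages overlapped for both genes. The 2 libraries that went against their sex label were of different stages, at 182 CPM of Clu for the one labelled P40 and 905 CPM for the one labelled P90, and without them the log2 changes were 0.69 for Clu and 1.84 for Slpi. Log2 changes of the other members lay between −0.21 and 0.44. The difference between the stage changes of double mutants and controls was 2.40 ± 1.14 for Wfdc18, −2.52 ± 1.16 for Slpi and 1.14 ± 0.67 for Clu, where 0.00914% of 10940 genes were called.

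Other genes of the same families were sparse in these glands. These lists, like the members, were drawn up with earlier results of these glands known, so their Drop-seq tests are not independent evidence. Of 19 further WAP-domain genes 12 were in the tables and 1, Wfdc17, had enough UMIs to be tested by genotype. It rose in double mutants by 2.26 ± 0.36 in Drop-seq (edgeR, adjusted p = 0.000211) and by 2.01 ± 0.36 in CITE-seq (edgeR, adjusted p = 0.0161), on the log2 scale, and its highest median was in myeloid immune-like cells, at 320 CPM in double mutants and 175 CPM in controls. Of the clusterin receptors Lrp2, Lrp8, Vldlr and Trem2, 2 were tested, and Trem2, a receptor of phagocytes, rose in Drop-seq by 1.91 ± 0.39 (edgeR, adjusted p = 0.00201) and was not called in CITE-seq. Its UMIs, too, lay in myeloid immune-like cells (218 CPM in double mutants and 106 CPM in controls). Of 5 proteases and partners of Slpi 2 were tested, and Grn, whose protein progranulin is shielded by Slpi from cleavage, rose in Drop-seq by 0.92 ± 0.17 (edgeR, adjusted p = 0.000728), with 500 CPM in myeloid immune-like cells of double mutants. In CITE-seq Grn was called on the plain UMI total alone (1.44, edgeR, adjusted p = 0.00824). Myeloid immune-like cells numbered 605 in controls and 2000 in double mutants, and their part in these 3 changes was not tested.

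Of 9 genes induced with Nupr1 in the ATF4 stress response, 8 were tested in Drop-seq and 9 in CITE-seq, with median log2 changes of 0.08 and −0.48 beside 0.01 and 0.0018 for all genes. In Drop-seq Ddit4 rose (0.49 ± 0.17, edgeR, adjusted p = 0.0371) and Atf3 fell (−0.68 ± 0.22, edgeR, adjusted p = 0.0312). On the plain UMI total Atf3 was not called (−0.14, edgeR, adjusted p = 0.562), nor were Chac1 and Asns in Drop-seq under either scaling, whereas Ppp1r15a was called there (1.05, edgeR, adjusted p = 0.00184). Atf3 had no fall elsewhere: in CITE-seq its log2 change was 0.22 with TMM (edgeR, adjusted p = 0.592) and 0.96 on the plain UMI total (edgeR, adjusted p = 0.0357), and in bulk it had 0.602 TPM in the control and 1.64 TPM in the double mutant. In CITE-seq Trib3, a pseudokinase that restrains ATF4, Chac1, which degrades glutathione, and Asns, the asparagine synthetase, fell by 4.25, 4.54 and 2.63 on the log2 scale (edgeR, adjusted p = 0.012, 0.00703 and 0.0118), and Ppp1r15a rose by 1.38 (edgeR, adjusted p = 0.0192). In the Drop-seq glands Asns and Chac1 were highest in Muc19-led cells, with control medians of 378 and 36.4 CPM, and next among control classes in acinar-like cells, with 156 and 15.7 CPM, and Trib3 was highest in Muc19-led cells of double mutants (14.7 CPM). The part of cell makeup in these changes was not tested. In the unreplicated bulk libraries Chac1 had 20.1 TPM in the control and 0.501 TPM in the double mutant, and Trib3 had 2.75 and 0.302 TPM. Nupr1 fell with Trib3, Chac1 and Asns in CITE-seq under TMM, but in bulk it was the higher in the double mutant. In the acinar-like cells of controls Ppp1r15a was higher in males (0.91 ± 0.23, edgeR, adjusted p = 0.0366), and none of these listed genes was called by sex in whole glands or by an interaction.

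Across the 26 Drop-seq glands, members followed different genes, given here as Pearson correlations of log2(CPM + 1) without a test, since the glands differ in genotype, depth and cell makeup. Clu was most like Ecm1 (0.96), AA467197 (0.94) and Plat (0.93), and Slpi most like Igha, Igkc and Itgam (0.88, 0.88 and 0.87), the first 2 being immunoglobulin genes. Wfdc18 was most like Gmds (0.90), Pglyrp1 (0.84) and Dnajc10 (0.81). Wfdc2 was most like Fosb (0.93), Hspa9 (0.91) and Aplp2 (0.91), and Wfdc12 most like 2310057J18Rik (0.82), which led an unnamed cluster, Ttr (0.79) and A730032A03Rik (0.78). For Nupr1 the highest value was 0.74, with Rpf1. Among the members Clu and Slpi were closest (0.83), followed by Clu and Wfdc2 (0.65), whereas Nupr1 and Wfdc12 had −0.0075.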

How the data were processed

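Drop-seq was available for 26 submandibular glands, CITE-seq RNA for 4 and bulk RNA-seq for 2. The authors sorted live single cells by size, fixed those for Drop-seq in methanol and took CITE-seq cells and bulk RNA fresh. They aligned reads with STAR to mm10 with Cre and EYFP added, and deposited raw UMI counts per gene and cell, and bulk read counts from featureCounts 1.6.0. The CITE-seq antibody counts were not used here.

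Cells with at least 100 genes and under 15% mitochondrial UMIs were kept, and in CITE-seq those under 2500 genes. UMIs were summed per gland, the replicate. A Drop-seq replicate is 1 gland of 1 mouse and CITE-seq cells of each animal were handled apart, per the study's methods; the labels do not say whether 2 glands shared a mouse. Tests used edgeR 4.0.16 (quasi-likelihood, TMM, low-count filter by filterByExpr, Benjamini-Hochberg over all genes), and were tested on simulated data. Sex, stage or both were covariates in Drop-seq, and the CITE-seq test of genotype had no covariate. Clusters used scanpy 1.11.5 (2000 variable genes without the members, 30 components, 20 neighbours, Leiden resolution 1.0); 22 of 28 were named from fixed markers, and names may differ from the study's. Class levels needed 10 cells in a gland. Bulk TPM used exon lengths. The members and gene lists were chosen with earlier results of these data known, and stage changes of members are given without p-values for that reason. All 6 members were named, with every listed gene called and the 3 genes most correlated with each member among those with a mean of at least 10 CPM. Replicate numbers did not pair glands. Alternatives were DESeq2 1.42.0, no filter, other scaling, thinning, batch, and leaving out libraries. Limits from 3 counts cover counting error only. The 95% interval is the log2 change ± 1.96 SE of the edgeR fit, which takes in the spread between glands.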

Additional observations from a re-analysis of the deposited data

Results flagged for a closer look

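Of 24 groups of 4 to 10 glands, 4 held a gland far from the others of its group by Dixon's criterion, which chance alone meets in about 1 group in 20. Control P90 replicate 2 had 35.9 CPM of Clu, next to 22.6 CPM in the nearest gland. Control P90 replicate 3 had 4165 CPM of Wfdc18, next to 1237 CPM. Double-mutant P40 replicate 3 had 20252 CPM of Wfdc12, next to 8699 CPM. Control P40 replicate 1 had 1.72 CPM of Slpi, on 4 UMIs, next to 0.3 CPM.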

How the results depend on the processing

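Calls counted over all genes moved more with the filter and the tool than those of the members. Without the low-count filter, 2235 genes were called by stage in controls, 232 by stage in double mutants, 189 by stage and genotype, 616 by sex in controls, 38 by sex in double mutants and 2356 in CITE-seq. DESeq2 gave 1 by stage in double mutants, 8 by stage and genotype, 170 and 2 by sex in controls and double mutants, 2 by sex and genotype and 644 in CITE-seq. The plain UMI total, in part chosen after seeing the data, gave 4752 in Drop-seq genotype and 3107 in CITE-seq. Without the 2 libraries against their sex label the counts were 1207 for Drop-seq genotype, 0 for stage and genotype and 5 for sex in double mutants, with 1 in acinar-like cells for sex and 1 for sex and genotype. Without double-mutant P90 replicate 4, 2 were called by stage and genotype. Leaving out each gland gave 57 to 196 by sex in controls (196 without control P40 replicate 2 and 117 without replicate 4), 0 to 2 by stage and genotype, and 380 to 1050 in CITE-seq (506 and 380 without double-mutant replicates 1 and 2, 406 without control replicate 2).

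With the replicate number as a block, sex in controls gave 10 calls and Wfdc12 a log2 change of 2.93 (edgeR, adjusted p = 0.359), where replicate numbers 2 and 4 alone hold both sexes. The block turned Clu to −0.0736, Wfdc18 to −0.23 and Nupr1 to −0.18. Same-numbered glands deviated together with correlations of −0.03 to 0.44 in controls, −0.33 to 0.48 in double mutants and 0.027 in CITE-seq, so the numbers were not taken as pairs.

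No call of a member reversed. Log2 changes that changed sign were, by stage in controls, Clu (0.0165 on the plain total, −0.48 to 0.0296 leaving out glands) and Nupr1 (0.13 on the plain total). By stage in double mutants they were Wfdc18 (−0.19 with batch, −0.0807 to 0.50 leaving out glands), Wfdc12 (−0.33 to 1.05) and Nupr1 (0.10 on the plain total, −0.48 to 0.0339). By stage and genotype it was Nupr1 (−0.0068 on the plain total, −0.20 to 0.35). By sex in controls they were Clu (−0.44 on the plain total, −0.0446 thinned, −0.21 to 0.44) and Nupr1 (−0.14 on the plain total). By sex in double mutants they were Clu (0.0106 unfiltered, 0.11 without the 2 libraries, 0.0816 without P90 replicate 4, 0.0477 thinned, 0.0694 with batch, −0.29 to 0.56), Wfdc18 (0.23 in acinar-like cells and 0.35 there without the 2 libraries, −0.53 to 0.0764) and Wfdc2 (−0.20 and −0.28 in acinar-like cells). By sex and genotype they were Clu (−0.61 to 0.22), Wfdc18 (−1.01 to 0.34), Slpi (−0.84 to 0.10) and Nupr1 (−0.14 to 0.47). The cause was not tested. Unfiltered, Wfdc18 was called by sex in controls (edgeR, adjusted p = 0.000619).

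Requiring 30 cells left 1 gland for Slpi in Ig-producing-like cells, at 12241 CPM, and no value for Nupr1 in the Muc19-led cluster of controls. Clu in tumor luminal-like cells ranged from 4060 to 7689 CPM over alternatives. Slpi in controls rested on 26 UMIs or fewer per gland.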
